A study of Mus musculus with 2 samples.

Results

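AT-rich distal regions were open chromatin regions of the mouse adrenal gland that lay within sequence poor in G and C. They were chosen by position and sequence: overlapping peaks of both libraries were merged, and a merged region was kept where it held a peak of each library, lay more than 1 kb from any protein-coding transcript start, and had under 43% GC in its central 150 bp. There were 1781 such regions among 43066 shared distal regions, 4.14% of them, and among 65778 shared regions in all, 22712 of which lay at promoters. Accessibility was measured by DNase-seq, in which DNase I cuts DNA that is not wrapped in nucleosomes and the cut ends are sequenced. The tissue came from male adult mice of 18 to 20 months, of strain B6CASTF1/J, an F1 hybrid of C57BL/6J and CAST/EiJ. There were 2 libraries of 1 group, labelled biological replicates 1 and 2 and prepared from separate biosamples with the same donor entry. The labels do not say whether these were separate animals, so the spread between them may be technical. There was no other condition, and no test between groups was possible; values are given for each library, and intervals are exact 95% binomial (Clopper-Pearson) intervals that cover counting error only.

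The depth behind each peak list was not stated. Replicate 1 had 98630 peaks and 228557 footprints, and replicate 2 had 118249 peaks and 273271 footprints. Of promoters of cell type markers, 7 of 10 steroidogenic cortex genes held a shared region (among them Star, Cyp11a1 and Nr5a1, but not Cyp21a1, Hsd3b1 or Mc2r). Of chromaffin genes, the promoters of Chga, Chgb and Slc18a1 held one and those of Th, Dbh and Pnmt did not. Endothelial promoters were open for 3 of 4 genes, fibroblast and capsule promoters for 3 of 4, and macrophage promoters for 1 of 4. Those of hepatocytes (Alb, Ttr) and kidney (Umod, Slc34a1) were open for 0 of 2 each. In whole tissue, a region open in few cells and one weakly open in many cannot be told apart.

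Distal open regions are mostly enhancers and insulators. Insulators are bound by CTCF, a protein of many zinc fingers that recognises a long, GC-containing site and halts the cohesin ring as it extrudes chromatin loops. AT-rich DNA includes stiff A tracts, on which nucleosomes form less readily, and the target sites of homeobox, forkhead, MEF2 and GATA factors. A DNase footprint is a short stretch inside an open region where cutting is low, as under a bound protein.

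The central windows showed what many of the members had in common. The windows below held the 12-letter core of the CTCF site without mismatch, within otherwise AT-rich sequence. They are given on the plus strand of mm10, 5′ to 3′, with the core in capitals. Cntrob and Samd9l name the nearest transcript start of members that ranked 5 and 6 by mean height. Rhbdd2 marks the higher of the members within 50 kb of a steroidogenesis gene, here Por, the reductase that supplies electrons to microsomal P450 enzymes. Adamts3 marks the member with the lowest GC content of all, 26.0%, and was added to the sequences because of that value.
Cntrob: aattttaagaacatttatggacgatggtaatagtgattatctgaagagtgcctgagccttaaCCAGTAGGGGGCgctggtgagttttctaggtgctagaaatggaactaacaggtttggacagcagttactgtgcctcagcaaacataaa
Samd9l: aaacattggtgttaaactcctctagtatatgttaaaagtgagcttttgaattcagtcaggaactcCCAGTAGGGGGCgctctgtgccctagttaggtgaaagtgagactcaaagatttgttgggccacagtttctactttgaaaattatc
Rhbdd2: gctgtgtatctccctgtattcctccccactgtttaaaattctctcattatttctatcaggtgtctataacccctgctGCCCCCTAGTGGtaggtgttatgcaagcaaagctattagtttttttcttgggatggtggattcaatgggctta
Adamts3: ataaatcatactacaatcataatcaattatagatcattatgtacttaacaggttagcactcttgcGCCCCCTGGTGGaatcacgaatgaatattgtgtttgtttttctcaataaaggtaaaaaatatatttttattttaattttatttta

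The Cntrob window was chr11:69272426-69272575, intergenic and 30554 bp from the start of Cntrob, with heights of 4.75 in replicate 1 and 5.05 in replicate 2. The Samd9l window was chr6:3183936-3184085, intergenic and 200906 bp from the nearest start, with heights of 4.58 and 5.05. The Rhbdd2 window was chr5:135630726-135630875, 1718 bp from the start of Rhbdd2 and 39133 bp from that of Por, with heights of 1.61 and 2.61. The Adamts3 window was chr5:89819656-89819805, in an intron of Adamts3, with heights of 1.05 and 1.26. In each of these windows all 12 bases of the core lay under footprints of both libraries.

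Other members held the core with a changed letter or more. They are shown because a search without mismatch misses them, with the best match to the core in capitals. The match had 1 mismatch in the Sf3b5, Slc25a25, Nfkb1 and 4930467E23Rik windows and 2 in the Znrf3 and Arhgef38 windows. Znrf3, a membrane ubiquitin ligase that lowers Wnt signalling, was the only gene of the adrenal zonation list with a member within 50 kb. The Arhgef38 window was the highest with an AP-1 site (TGAGTCA) whose middle lay under footprints of both libraries, directly after the last base of the core match.
Sf3b5: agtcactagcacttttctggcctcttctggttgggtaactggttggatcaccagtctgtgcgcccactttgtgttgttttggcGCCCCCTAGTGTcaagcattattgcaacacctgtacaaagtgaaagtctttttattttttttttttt
Slc25a25: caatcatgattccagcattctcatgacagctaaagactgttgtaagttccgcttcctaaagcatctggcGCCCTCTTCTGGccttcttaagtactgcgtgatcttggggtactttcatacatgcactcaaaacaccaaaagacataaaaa
Nfkb1: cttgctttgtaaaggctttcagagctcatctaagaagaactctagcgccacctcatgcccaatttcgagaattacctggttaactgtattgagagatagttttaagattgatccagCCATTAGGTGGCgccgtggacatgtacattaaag
4930467E23Rik: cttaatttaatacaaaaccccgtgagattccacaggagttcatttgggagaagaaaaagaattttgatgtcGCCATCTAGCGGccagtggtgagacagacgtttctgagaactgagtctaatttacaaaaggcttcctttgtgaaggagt
Znrf3: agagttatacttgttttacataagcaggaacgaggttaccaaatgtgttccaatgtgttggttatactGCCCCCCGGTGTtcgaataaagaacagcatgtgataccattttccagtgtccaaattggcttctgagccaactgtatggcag
Arhgef38: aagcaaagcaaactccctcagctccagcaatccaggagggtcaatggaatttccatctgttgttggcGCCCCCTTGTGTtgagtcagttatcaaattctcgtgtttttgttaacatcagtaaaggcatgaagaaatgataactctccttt

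These windows lay at chr10:12997226-12997375, chr2:32487476-32487625, chr3:135731416-135731565, chr8:19703216-19703365, chr11:5474286-5474435 and chr3:133272016-133272165, all intergenic. Their heights in replicates 1 and 2 were 4.46 and 4.93 for Sf3b5, and 4.67 and 4.41 for Slc25a25. They were 3.51 and 5.39 for Nfkb1, and 3.45 and 6.58 for 4930467E23Rik. They were 1.55 and 2.08 for Znrf3, and 2.30 and 3.65 for Arhgef38. All 12 bases of the match again lay under footprints of both libraries in each window.

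Of the 10 highest members 4 had no near match to the core, with 3 or more mismatches at best. The highest of them are shown, and in their windows the capitals mark bases under footprints of both libraries.
Pak3: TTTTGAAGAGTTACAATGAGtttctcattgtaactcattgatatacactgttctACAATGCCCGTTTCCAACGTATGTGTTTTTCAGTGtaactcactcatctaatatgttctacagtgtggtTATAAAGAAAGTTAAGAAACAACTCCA
Gm10722: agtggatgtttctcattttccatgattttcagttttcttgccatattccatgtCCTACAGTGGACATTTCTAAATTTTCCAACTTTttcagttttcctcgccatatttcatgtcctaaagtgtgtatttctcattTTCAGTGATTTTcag

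The Pak3 window, chrX:143482986-143483135, was intergenic and 35451 bp from the start of Pak3, and its heights of 12.04 and 26.9 were the highest of all members in both libraries. The Gm10722 window, chr9:3002056-3002205, in an intron of Gm10722, had heights of 4.31 and 10.3, and all of it was in lower case in the reference, the mark of repeated sequence. Of the Pak3 window 30.7% was in lower case. Both windows stood more than 2-fold higher in replicate 2. The number of copies of such sequence in these mice, and how reads from copies were placed, was not examined.

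Over all members, the CTCF core was far more frequent than in the flanking DNA. It was present without mismatch in 440 of 1781 windows, 24.7% (22.7 to 26.8%), against 11.1% (10.8 to 11.4%) of the 41285 other shared distal windows. Of 3561 windows of the same length centred 1 kb to either side of the members, 1 held it, 0.0281%; of the 1773 flanks that themselves had under 43% GC, 1 did, 0.0564%. With up to 1 mismatch, a setting added after the first counts were seen, the core was in 1092 members, 61.3% (59.0 to 63.6%), against 30.1% of other distal windows and 1.49% of the flanks. With up to 2 mismatches it was in 1380 members, 77.5%, against 49.0% and 9.91%. At 3 mismatches the flanks already reached 46.4%, beside 87.8% of the members, so that setting was not used to count members. Members had to hold a peak of each library, and AT-rich peaks with the core recurred more often, so these shares depend on that filter. Over all distal peaks under 43% GC, shared or not, 1076 of 2569 in replicate 1 held the core with up to 1 mismatch. In replicate 2 it was 2156 of 6156. Of the other distal peaks it was 13466 of 66993 and 15474 of 81314.

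Among regions with a peak of each library, the share without mismatch rose as the GC content of the window fell. Without mismatch it was 2.91% of shared distal windows at 65% GC or more, 12.1% at 50 to 55%, 17.7% at 43 to 45%, just outside the limit, 23.4% at 40 to 43%, 27.3% at 35 to 40% and 32.4% (21.5 to 44.8%) of the 68 windows under 35%. With up to 1 mismatch it was 13.2%, 31.5%, 50.1%, 59.5%, 66.6% and 58.8% in the same bins, so it was highest at 35 to 40% GC, with an interval under 35% (46.2 to 70.6%) that covers that value. The flanks ran the other way: with up to 1 mismatch, 4.48% of flanks at 65% GC or more held it and 0.935% of those under 35%.

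**Figure D1:**
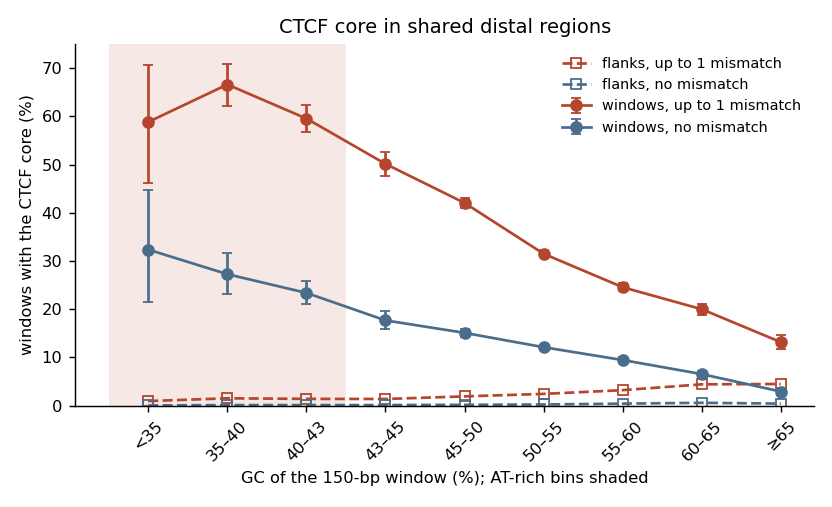
Share of shared distal windows of 150 bp with the CTCF core (y axis, %) by GC content (x axis, %), without mismatch and with up to 1, with exact 95% intervals; open squares are windows 1 kb away. The share climbs from 2.91% to 32.4% without mismatch as GC falls, while fewer than 5% of flanks hold the core in any bin.

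The core lay at the centre of the members and under footprints. Of the 440 windows with the core, 96.6% had it within the central 50 bp. Its middle lay under a footprint of replicate 1 in 92.0%, of replicate 2 in 97.0% and of both in 402, or 91.4%. Of all bases in the central 50 bp of the members, 47.7% lay under a footprint of replicate 1 and 51.9% under one of replicate 2. With up to 1 mismatch, 966 of 1092 matches, 88.5%, lay under footprints of both, so 54.2% of all members carried a footprinted core or near-core. The same share of other distal windows was 25.6%.

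The GC content within the windows was also highest at the centre. The rule capped the mean GC of the central 150 bp, and did not ask for a rise at its centre. With such a rise, however, the cap forces the rest of the window to be low. The low GC beside the centre and outside footprints therefore follows at least in part from the rule, and is not separate evidence for the core. In 50-bp bins, GC averaged 48.2% at the centre of the members, and 36.5% in the bins on either side, below the 42.4% of the bin 1 kb before the centre. Under footprints, GC was 49.4% in replicate 1 and 47.8% in replicate 2, against 37.5% and 37.4% in the rest of the windows. In the other distal regions the corresponding values were 59.6% and 58.5% against 53.2% and 53.3%. That step was smaller, but the cap did not apply to those windows. The part that DNase I's own sequence preference has in the footprint calls was not tested.

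**Figure D2:**
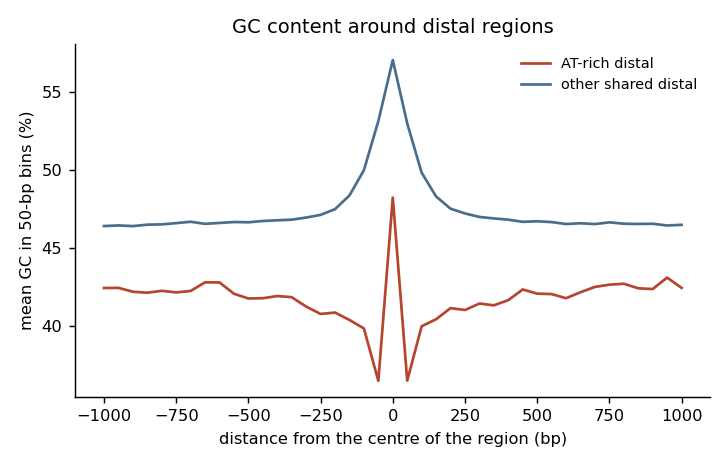
Mean GC (y axis, %) in bins of 50 bp by distance from the region's centre (x axis, bp) for the AT-rich members and the other shared distal regions. The members have a narrow central rise to 48.2% between bins at 36.5%, whereas the other regions have a single broad rise. The low bins beside the centre follow at least in part from the GC limit that chose the members.

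Counting all 6-letter words, a search made after the motif counts were seen, gave the same site. Among 1525 words present in at least 2% of the members' windows, the highest ratios to the flanks belonged to GCGCCC, in 10.4% of windows and 0.758% of flanks, GGCGCC (6.18% and 0.590%), AGCGCC (11.01% and 1.15%) and GCGCCA (12.3% and 1.52%). Each is counted on both strands. These words occur at the end of the core and just past it, as in the Cntrob, Sf3b5 and Nfkb1 windows above.

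The 401 members without a core at up to 2 mismatches were searched in the same way. By ratio to the flanks the first word was again GCGCCC, in 3.74% of windows and 0.249% of flanks. TTGGCA, which ranked 11 and was the most frequent of the first 12, is the half-site of NFI factors, which bind DNA as dimers and are linked to enhancers of many differentiated tissues. It was in 100 of these windows, 24.9% (20.8 to 29.5%), against 7.11% of their flanks. In the members with the core at up to 1 mismatch it was in 6.32%, against 7.01% of their flanks. Of the 100 windows, 33 had it under footprints of both libraries, 33.0%. In the members with the core at up to 1 mismatch, 23 of 69 windows with the half-site did, 33.3%. The other distal regions without a core had a half-site in 19.6%, against 7.54% of flanks, so the excess was not particular to AT-rich windows. The full palindrome (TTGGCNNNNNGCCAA) was in 8 members, 0.449%, and in 0 of the 3561 flanks, which at 3 counts allows a share of up to 0.0842%.

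Motifs of factors that prefer AT-rich DNA had shares in the members whose intervals overlapped those in all flanks. The homeobox core TAATTA was in 6.06% of members and 6.12% of flanks, the forkhead site (TGTTTAC or TATTTAC) in 5.61% and 5.28%, and the TATA box (TATAAAA) in 4.997% and 5.14%. GATA sites (AGATAAG or TGATAAG) were in 2.64% and 3.59%, and MEF2 sites (CTAAAAATA or CTATTTATA) in 0.955% and 0.590%. Beside the 1773 flanks under 43% GC, the homeobox core (10.4%), the TATA box (8.12%) and GATA sites (4.79%) were less frequent in the members than in the flanks, with intervals apart. In the other distal windows TAATTA was in 1.24%, the forkhead site in 2.20%, the TATA box in 0.850%, the MEF2 site in 0.286% and GATA in 2.33%, which is within the counting interval of the members for GATA alone. Those windows had a median GC of 54.0%, against 41.3%. HNF1 sites (GTTAATNATTAAC) were in 0 of 1781 members, which at 3 counts allows a share of up to 0.168%. They were also in 0 of 41285 other distal windows and 0 of 3561 flanks, so their absence is not particular to the members.

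A tracts and sites of adrenal factors gave a mixed picture. A run of 8 A or T (AAAAAAAA on either strand) was in 236 members, 13.3%, and 1.30% of other distal windows; it was in 6.32% of all flanks and 10.5% of flanks under 43% GC, whose interval met that of the members. Only 4.61% of A tract matches lay in the central 50 bp, against 96.4% of matches to the exact CTCF core. The site of NR5A1 (SF-1), the nuclear receptor that drives steroidogenic genes (CAAGGTCA or CAAGGCCA), was in 2.25% of members and 2.13% of their flanks, and in 4.88% of other distal windows. AP-1 sites were in 3.71%, 2.78% and 8.61% in the same order. In flanks under 43% GC the NR5A1 site was in 1.41% and AP-1 sites in 2.76%, with intervals that overlapped those of the members. Of the 40 NR5A1 matches in members 52.5% lay in the central 50 bp, and of the 73 AP-1 matches 41.1% did. GGGCGGGG, the SP and KLF site of GC-rich promoters, was in 1 member, 0.0561%, and in 3.08% of other distal windows. It was in 0.309% of all flanks and 0.113% of flanks under 43% GC.

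Members with the core were higher than those without. The median height was 0.934 in replicate 1 and 1.54 in replicate 2 over the 440 members with the exact core. It was 0.791 and 1.22 over the 652 with 1 mismatch, 0.727 and 1.17 over the 288 with 2, and 0.515 and 0.772 over the 401 with 3 or more. The quartiles of the first and last classes, 0.611 to 1.51 and 0.382 to 0.770 in replicate 1, overlapped. The other distal regions showed the same order, from 1.78 and 2.07 with the exact core to 0.696 and 0.892 with 3 or more mismatches. The share of members with 50% or more of the window in lower case, as repeats are written in the reference, was 5.23% with the exact core, 15.6% with 1 mismatch, 10.1% with 2 and 6.23% with 3 or more.

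**Figure D3:**
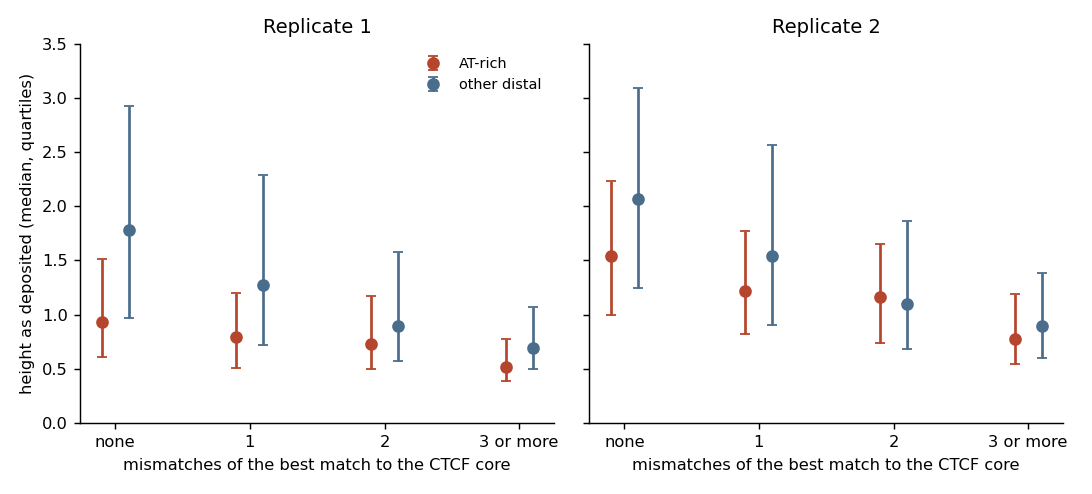
Height as deposited (y axis, points are medians and bars quartiles) by the mismatches of the best match to the CTCF core (x axis), for members and other shared distal regions in each library. Medians of the members fall from 0.934 to 0.515 in replicate 1 and from 1.54 to 0.772 in replicate 2.

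As a class the members were neither clearly higher nor lower than other distal regions. A height is the deposited signal of the highest peak of a library in the region, in the authors' scale, in which 99.98% of values were whole multiples of a step of 0.00531 in replicate 1 and all were of 0.00750 in replicate 2, within 0.05 of a step. The median member had 137 and 156 steps. The median height of the members was 0.727 in replicate 1 and 1.17 in replicate 2, and that of the other distal regions 0.855 and 1.09. On the log2 scale the members were lower in replicate 1 (−0.23) and higher in replicate 2 (0.10), a mean of −0.07 ± 0.23 (SD, n = 2). The sign in replicate 2 turned with the shorter peak list (−0.12), with GC over the central 100 bp (−0.10) and with regions from reciprocal overlaps (−0.02). It also turned when all distal peaks of replicate 2 were used without replicate 1 (−0.37). The members were narrower, with a median width of 180 bp against 200 bp, and the highest other distal region reached 72.2 and 79.4, above the highest member.

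The libraries differed more at the members than elsewhere. The median log2 height of replicate 1 over replicate 2 was −0.54 at the members, −0.20 at other distal regions and 0.03 at promoters. Replicate 2 stood more than 2-fold higher at 345 members, 19.4% (17.6 to 21.3%), against 6.75% of all shared distal regions. Replicate 1 stood more than 2-fold higher at 2 members, 0.112%, against 0.362%. Replicate 2 was the higher of the libraries at 87.9% of members and 68.3% of other distal regions. Spearman's rho between the libraries' heights was 0.834 over the 1781 members and 0.886 over the other distal regions, as a description, since the points share both libraries.

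The shift followed GC content in small steps rather than starting at the limit. Its median was −0.58 under 35% GC, −0.56 at 35 to 40%, −0.54 at 40 to 43%, −0.48 at 43 to 45% and −0.25 at 50 to 55%, and it was 0.14 at 65% or more. Within the members it hardly moved with the CTCF core: −0.58 with the exact core, −0.52 with 1 mismatch, −0.53 with 2 and −0.55 with 3 or more. The other distal regions with the exact core had −0.15. The GC content of the libraries' reads was not analysed here, so a difference between samples and a difference in library preparation cannot be told apart.

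**Figure D4:**
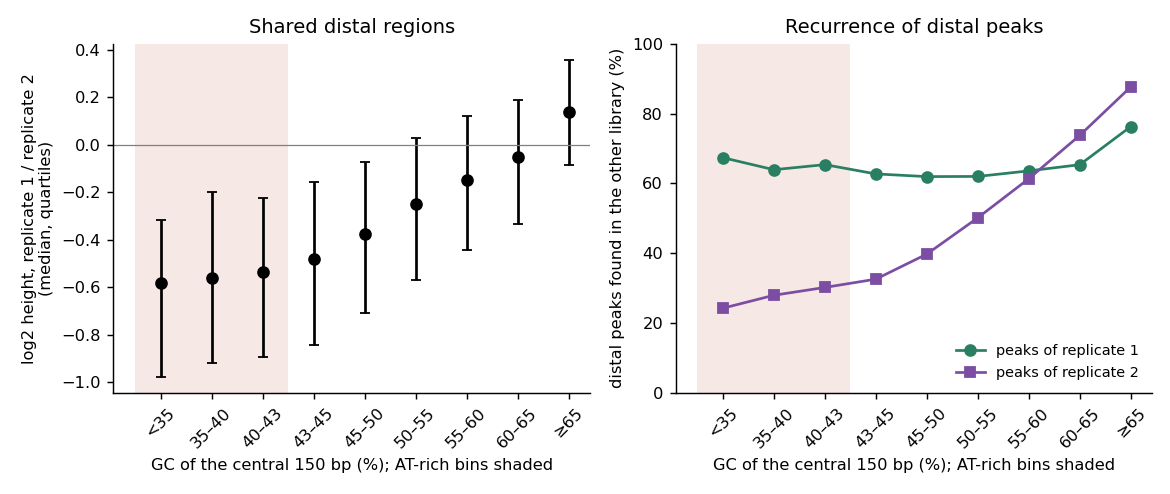
Left, log2 height of replicate 1 over replicate 2 at shared distal regions (y axis, median and quartiles); right, share of each library's distal peaks that overlap a peak of the other (y axis, %); both by GC content of the central 150 bp (x axis, %). Replicate 2 is higher in the shaded AT-rich bins, and 24.2 to 30.2% of its peaks there recur in replicate 1.

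Peak calls were uneven in the same way. Replicate 1 had 2569 distal peaks under 43% GC, 3.69% of its distal peaks, and replicate 2 had 6156, 7.04%. Of those of replicate 1, 1672, or 65.1% (63.2 to 66.9%), overlapped a peak of replicate 2, against 63.6% of all its distal peaks. Of those of replicate 2, 1804, or 29.3% (28.2 to 30.5%), overlapped a peak of replicate 1, against 50.4%. The ratio of peaks in replicate 2 to peaks in replicate 1 fell from 2.74 under 35% GC to 0.791 at 65% or more. Height bore on recurrence: in the lowest quintile of replicate 1's distal peaks by height, 3.99% of the AT-rich peaks recurred, beside 4.13% of the other peaks, and in the third quintile 95.5% did, beside 75.5%. In the third quintile of replicate 2, 27.6% of AT-rich peaks recurred, beside 45.6% of the others, and in the highest quintile 95.8% and 97.8%.

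Peaks with the core recurred more often than peaks without it. Of replicate 1's AT-rich distal peaks with the exact core, 427 of 431, 99.1%, overlapped a peak of replicate 2, and of those with more than 1 mismatch, 42.3% did. For replicate 2 the shares were 435 of 755, 57.6%, and 17.9%. Peaks with the core were also higher, with a median of 0.924 against 0.212 in replicate 1 and 0.930 against 0.427 in replicate 2.

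Nearly all members held a footprint. A footprint of each library overlapped 1686 members, 94.7%, against 85.9% of all shared distal regions, and 7 members had none in either library. The share of the central 150 bp under footprints was 24.1% in replicate 1 and 28.6% in replicate 2 at the members, and 19.5% and 21.5% at other distal regions. In the central 50 bp it was 47.7% and 51.9%, against 32.1% and 34.6%. The median footprint was 12 bp wide at the members in both libraries, and 10 bp and 11 bp at the other distal regions. Of replicate 1's footprints at members 76.3% overlapped one of replicate 2, against 63.0% at other distal regions, and of replicate 2's, 61.0% against 56.7%.

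This held at matched height. In the lowest quintile by height, 12.2% of window bases were under footprints in replicate 1 and 14.1% in replicate 2 at members, against 7.04% and 7.67% at other distal regions. In the middle quintile the values were 25.9% and 28.2% against 15.6% and 19.7%, and in the highest 44.0% and 42.2% against 39.2% and 39.1%. The values by class of the core were not matched for height. Members with 3 or more mismatches had 13.4% and 18.6% of bases under footprints, and other distal regions of that kind 12.9% and 15.7%. With 2 mismatches the values were 25.9% and 30.4% at members, against 19.6% and 21.7%. With 1 mismatch they were 27.0% and 31.3%, against 29.2% and 30.2%. Members with the exact core had 28.3% and 32.6%, and other distal regions with it 33.0% and 33.4%.

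**Figure D5:**
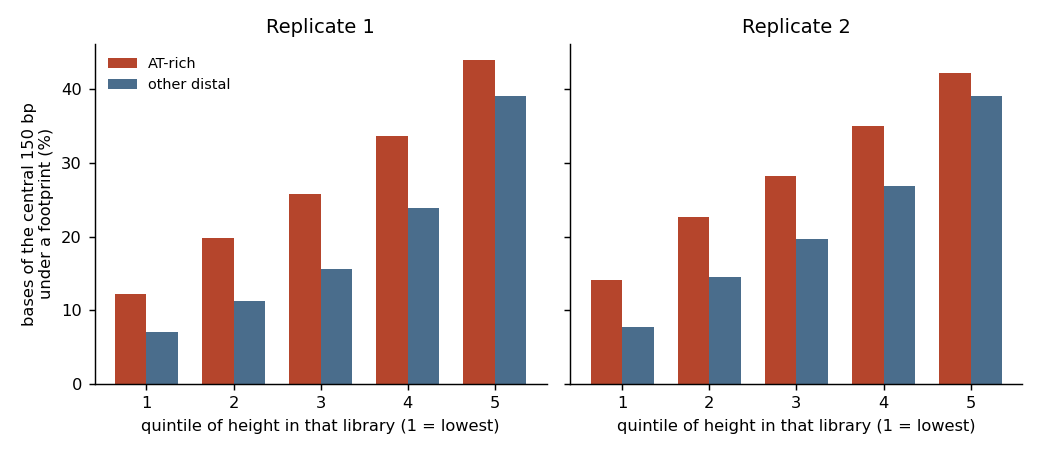
Share of the bases of the central 150 bp under a footprint (y axis, %) by quintile of height in that library (x axis), for members and other shared distal regions. The members' bars are the taller in all 5 quintiles of both libraries, by the most in quintiles 2 to 4.

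The deposited false discovery rates of the cut rate differed between libraries more than between classes. At the members the median of the lowest rate in the central window was 9.28e-05 (replicate 1) and 2.43e-10 (replicate 2). At other distal regions it was 6.31e-05 and 6.07e-08. A rate of 0.001 or less was reached by 64.5% and 92.9% of members, and by 63.7% and 82.8% of the others.

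At the GC limit median heights changed little, and the share with a footprint of each library was somewhat lower just outside. The 365 members with 64 of 150 bases G or C, 42.7%, had median heights of 0.717 and 1.17, and the 429 regions just outside, with 65 such bases, had 0.690 and 1.07. A footprint of each library was in 95.1% and 91.1% of them.

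The members lay in surroundings of lower GC content, and farther from genes, than the other distal regions did. The GC content of the whole genome was not computed for comparison. Median GC was 41.9% over the 100 kb around them, against 45.3% for the other distal regions. The median distance to a protein-coding transcript start was 31310 bp, against 23737 bp, and 37.8% of members, against 30.2%, lay more than 50 kb away. By the place of their centre, 57.0% were intergenic, 40.9% intronic, 33 in untranslated exons and 5 in coding exons. Coding exons held 0.281% of members and 3.40% of other distal regions. The GC content of coding exons was not computed, so the part of the GC limit in that difference was not tested. The start of a long noncoding RNA lay within 1 kb of 2.58% of members and 4.30% of the others. There was a median of 1 CpG in the window, against 3, and none in 22.3%, against 8.92%. CpGs were counted in the same window whose GC content the rule limits, so a lower count follows at least in part from the rule. At least 50% of the window was in lower case in the reference in 10.1% of members and 3.93% of the others.

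Few genes had more than 1 member nearby. Of 21829 protein-coding genes, 2064, 9.46%, had a member within 50 kb of a start, 153 had 2 or more and 15 had 3, the most found. Those with 3 were Acbd6, a binder of long-chain acyl-CoA, on chromosome 1, the neighbours Eif4enif1 and Sfi1 on chromosome 11, and 12 genes on chromosome 4 that include Ifna1, Ifna4, Ifna5, Ifna6, Ifna7 and Ifna11 of the interferon alpha cluster. The 12 genes on chromosome 4 had the same 3 members between them, as did the pair on chromosome 11. The interferon alpha genes are close copies of one another, and how reads were placed among such copies was not examined.

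How many steroidogenesis genes had a member nearby turned on the distance allowed. Of 22 steroidogenesis genes 2 had a member within 50 kb, 9.09%, near the 9.46% of all genes. Within 20 kb it was 0 of 22, against 4.11% of all genes, and within 100 kb 8 of 22, 36.4%, against 17.0%. The genes with one within 50 kb were Por, described above, and Mc2r, the receptor of adrenocorticotropic hormone, whose member 45401 bp away had heights of 1.89 and 2.29. Star, Cyp11a1, Nr5a1 and the other genes of that list had none at that distance. Of 12 genes of zonation and capsule signalling 1 had a member within 50 kb (Znrf3), of 16 of cholesterol synthesis and uptake 1 (Fdps, farnesyl diphosphate synthase), and of 22 chromaffin cell genes 0. Members made up 2 of the 96 distal regions near steroidogenesis genes, 2.08%, and 0 of 54 near chromaffin genes, beside 3.70% of the distal regions within 50 kb of any protein-coding gene.

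The glucocorticoid response list had the highest share of genes with a member within 50 kb among the 16 lists, 5 of 10, against 9.46% of all genes. Its genes also had more distal regions of any kind nearby, a median of 9 against 2. Members made up 6 of its 92 distal regions, 6.52%, against 3.70% near all genes and 6.82%, 3 of 44, for the adipocyte list. The 5 genes were Nr3c1, the glucocorticoid receptor, Sgk1, a kinase that raises sodium transport, with 2, Dusp1, a phosphatase of MAP kinases, Per1, a clock repressor, and Hsd11b1, which regenerates active glucocorticoid. The Hsd11b1 member, in an intron 8295 bp from a start, ranked 49 by mean height, with 2.98 in replicate 1 and 3.55 in replicate 2, and its best match to the CTCF core had 2 mismatches. Within 20 kb the list had 2 genes with a member. The lists were short and chosen with earlier results known, so the share is a description.

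Other cell types had few members near their genes. Within 50 kb there was a member near Cdh5 of 14 endothelial genes (heights 0.749 and 0.825), near Acta2 of 12 fibroblast and mural cell genes (0.791 and 1.62), and near Lyz2 of 14 macrophage genes (0.425 and 0.667). These were 7.14%, 8.33% and 7.14% of the genes listed, near the 9.46% of all protein-coding genes. The adipocyte list had 3 members at 2 of 10 genes, Lpl, with 1.51 and 2.44 at the higher of its 2, and Cebpa. Of the lists for cells outside the gland, hepatocytes had members at 2 of 14 genes, Ttr (1.17 and 1.84) and Ahsg, and forebrain neurons and skeletal muscle had 0. The shares were 20.0% of adipocyte genes and 14.3% of hepatocyte genes, and with so few genes they are a description. The intronic Acta2 member held the exact CTCF core, and that of Cdh5 the core with 1 mismatch.

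The highest members completed the picture. Besides those printed above, the 10 included one 118432 bp from the start of Vmn1r238, with heights of 6.74 and 5.62, so that replicate 1 was the higher there. It had no near match to the core, and 68.0% of its window was in lower case. Another lay 1727 bp from the start of Maf, a leucine zipper factor, with 4.02 and 4.43, and its window had a best match to the core with 3 mismatches, all of whose bases were under footprints of both libraries. Of the 10, 2 held the exact core under footprints of both libraries and 4 more held it with 1 mismatch.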

How the data were processed

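DNase-seq of adrenal gland was deposited as 2 peak lists, 1 footprint list and 1 list of cut-rate false discovery rates per library. Per the deposited file index they derive from filtered mm10 alignments. The aligner, the callers and the settings used were not given in the sources used here. Peak heights are the authors' signal, with no stated scale. The footprint score deposited by the authors was 0.01 in every row and was not used. The false discovery rates (q-values) deposited by the authors were listed under 0.05 only.

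The longer peak list of each library was used, on chromosomes 1 to 19, X and Y. Peaks overlapping by 1 bp were merged, and distances were taken to 54361 protein-coding transcript starts of GENCODE vM21. GC, repeats (lower case) and windows were read from RefSeq's GRCm38.p6, whose chromosome lengths equal those of mm10. A window's flanks were centred 1 kb away on each side. Motifs (32) and CTCF cores were matched on both strands, and overlapping matches all counted. The search was tested on simulated windows. Python 3.11.15, numpy 2.4.6, pandas 2.3.3 and scipy 1.17.1 were used. With 2 libraries of 1 group, no p-value was computed.

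Named regions were the 10 highest by mean height, the highest within 50 kb of each of 16 gene lists (223 symbols, all matched), the regions at the GC limit, the most AT-rich one, and the highest with a footprinted motif; named genes were those with the most members within 50 kb. Members, motifs and lists were chosen with earlier results of these data known, and the alternatives beside them are given at the end. Alleles of the F1 hybrid were not separated.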

Additional observations from a re-analysis of the deposited data

How the results depend on the processing

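The choice of peak list and GC limit set how many members there were. In place of 1781, the shorter peak list gave 1069, limits of 40% and 46% GC gave 523 and 4064, and GC over the central 100 bp and 300 bp gave 940 and 3906. With 1 library left out, a peak of each could not be asked for, and the remaining library had 2562 to 6134 AT-rich distal regions. The members' share of shared distal regions, 4.14%, was 1.21% and 9.44% under the limits of 40% and 46%. It was 2.18% over 100 bp and 9.07% over 300 bp. Of all distal regions of a single library, shared or not, 3.73 to 7.08% were AT-rich. The log2 ratio of median heights, −0.07, was −0.37 to −0.31 with 1 library left out, so the sign in replicate 2 turned. The share with a footprint of each library, 94.7%, was 99.3% with the shorter list, 92.3% under 46% GC and 89.1% over 100 bp. It was 96.7% with reciprocal overlap and 91.0% for footprints wholly inside the window. With 1 library left out, 70.3 to 77.6% of the remaining library's AT-rich distal regions held a footprint of that library. That is another measure, over regions shared or not. The share more than 2-fold apart, 19.5%, was 12.8% with the shorter list, 22.0% under 40% GC, 22.4% over 100 bp and 16.1% over 300 bp. Recurrence of replicate 1's AT-rich peaks, 65.1%, was 70.1% with the shorter list, 49.0% over 100 bp, 72.3% over 300 bp, 61.3% with reciprocal overlap and 68.3% without peaks mostly in lower case, an alternative added after seeing the data. That of replicate 2, 29.3%, was 32.6%, 22.9%, 36.05% and 26.1% under the first 4 of these, and 27.4% and 31.6% under the limits of 40% and 46%. Recurrence and the 2-fold share have no value with 1 library left out.

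Of 32 motifs, 3 were above the flanks with intervals apart (CTCF, A tract of 8, NFI) and 0 below. Beside flanks under 43% GC, 1 was above (CTCF) and 3 below, and in the central 100 bp 2 were above and 2 below (TATA box, homeobox core). The share with the CTCF core, 24.7%, was 61.3% and 77.5% with up to 1 and 2 mismatches. It was taken over shared regions only, and depends on that filter. Of 16 gene lists, 13 had a member within 50 kb and 6 within 20 kb. The causes of these differences were not tested. In all, 36 of 76 values under an alternative kept within the spread of the libraries, their counting interval or 1.5 times the count. The depth of the libraries was not stated, and with 2 libraries the spread itself is poorly known.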

Other observations

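AT-rich distal peaks found in 1 library differed in sequence between the libraries. Of the 4352 found in replicate 2 and not in replicate 1, 320 held the exact CTCF core, 7.35% (6.59 to 8.17%), and 1068 held it with up to 1 mismatch, 24.5% (23.3 to 25.8%). Of the 897 found in replicate 1 and not in replicate 2, 4 held the exact core, 0.446% (0.122 to 1.14%), and 35 held it with up to 1 mismatch, 3.902%. The latter peaks were low, at a median height of 0.112, against 0.405 for the former. At least 50% of the window was in lower case in 23.0% of them, against 6.92%. Among other distal peaks found in 1 library, 7.61% in replicate 2 and 3.84% in replicate 1 held the core with up to 1 mismatch.

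Chromosome X had the largest share of AT-rich regions among the 21 chromosomes analysed: 92 of its 996 shared distal regions, 9.24%, against 3.06 to 5.42% on the autosomes, with 3 of 36 on Y. The 92 regions were 5.17% of all members, and chromosome X held 2.19% of the other shared distal regions. The median log2 height of replicate 1 over replicate 2 was −0.61 at the members on X, within the range of −0.63 to −0.42 on the autosomes.

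The members named for 4930467E23Rik and Cdh5 shared a run of 72 bp on opposite strands, which holds the CTCF core with 1 mismatch in each. Their heights differed, at 3.45 and 6.58 against 0.749 and 0.825. How reads from the shared sequence were placed between the 2 regions was not examined.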
